A study of Homo sapiens with 4 samples.

Results

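The genes of cholesterol synthesis and of SREBP-driven lipogenesis were followed on 4 one-colour gene expression arrays of cells labelled A549, a line from human lung adenocarcinoma. The group holds 35 genes of the 16659 measured in the series, and it was selected with the values of these same arrays known, from the same comparisons that are described here. Its values are therefore given as a description, and no test was made on them. Probes were assigned to the 35 symbols through the RefSeq accession listed for each spot. One array held cells transfected with miR-486-5p, 1 held cells transfected with miR-486-3p, and 2 mock arrays, mock 1 and mock 2, held cells given the transfection reagent (Lipofectamine RNAiMAX) alone. These miRNAs are the guide and the passenger strand of a single precursor. Total RNA was taken from cells grown in RPMI medium, and the labels give neither a dose nor a time after transfection. A transfected group of 1 array has no replicate, no control miRNA stands beside the mock arrays, and the labels do not say whether the mock arrays came from separate cultures, and precision is limited by the number of arrays.

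Cholesterol is built from acetyl-CoA through the mevalonate pathway, which leads to farnesyl diphosphate, then to squalene and lanosterol, and through a further series of enzymes of the endoplasmic reticulum to cholesterol. The transcription factors encoded by SREBF1 and SREBF2 wait in the membrane of the endoplasmic reticulum, bound to the escort protein SCAP. When sterols are low, SCAP carries them to the Golgi, where proteases release the active part, and when sterols are high, the INSIG proteins hold SCAP back. The SREBF2 product is best known for driving genes of sterol synthesis, and the main SREBF1 product for driving genes of fatty acid synthesis, with overlap between them. Most of the enzymes described here, and INSIG1 itself, are textbook targets of these factors.

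The label of the cells was set against marker genes. Of 9 markers of epithelium and of A549 cells, 4 (KRT8, KRT18, KRT19 and AKR1C1) had every probe well above background on both mock arrays, and 3 (EPCAM, CDH1 and AKR1B10) had no probe that was. CDH1, which encodes E-cadherin, was not well above background on any array, with scaled log2 signals of -6.75 and -6.84 on the mock arrays, -6.73 with miR-486-5p and -6.55 with miR-486-3p, where 0 is the 75th percentile of all spots on the array. AKR1B10, an aldo-keto reductase for which A549 cells are known, passed this mark with 1 of its 2 probes after miR-486-3p and with neither probe on the other arrays. EPCAM passed it on mock 2 and after miR-486-5p, and ALDH1A1 and ALDH3A1 each had 1 of 2 probes above it on both mock arrays. These values go against the label, and the cells are called the cells labelled A549 throughout. The summed signal of the 9 markers, in multiples of the 75th percentile, was 214 and 213 on the mock arrays, 153 with miR-486-5p and 160 with miR-486-3p, with KRT18 the brightest on every array. Of 10 fibroblast, endothelial and leukocyte markers, 9 had a probe. COL1A1, VWF, CDH5 and CD3E had every probe well above background on both mock arrays, DCN and PTPRC had some of their probes so, and COL3A1, LUM and PECAM1 were not well above background on any array. Their summed signal was 1.37 and 1.30 on the mock arrays, 1.58 with miR-486-5p and 1.72 with miR-486-3p, with PTPRC the brightest after transfection and CDH5 on the mock arrays. Signals of different probes are not comparable as amounts of RNA, so the brightest gene need not be the most abundant, and a sum is set only beside the same sum on the other arrays. What part the identity of the cells has in the results was not tested.

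The 35 genes were read by 41 probes, 30 genes by 1 probe and 5 by several, and all 41 probes were well above background on all 4 arrays, so no member entered through a filter on dim signal. A log2 difference is the scaled log2 signal after transfection minus the mean of the mock arrays, averaged over a gene's probes, and a gene is called lower or higher when it passes 0.5 in either direction. After miR-486-5p, 8 of the 35 genes were lower and 6 higher, beside shares of 15.9% lower and 13.8% higher among 16021 genes. After miR-486-3p, 29 were lower and 3 higher, beside 27.2% of 16443 genes lower and 30.4% higher. Between the mock arrays, none of the 35 passed the limit, against 1.24% of 16069 genes lower and 1.71% higher in mock 2 than in mock 1. At a limit of 1, 2 members were lower and 2 higher after miR-486-5p, beside 4.61% and 2.53% of genes, and 19 lower and 1 higher with miR-486-3p, beside 14.0% and 14.8%. The median log2 difference of the 35 was 0.03 after miR-486-5p and -1.08 with miR-486-3p, where the medians over all genes were 0.03 and 0.06. The mock arrays differed by between -0.22 and 0.13 at every member probe. From the scanner software's error of each signal, the error of a probe's log2 difference was worked out as 0.18 to 0.21. That error does not cover differences between cultures or transfections. Both comparisons use the same mock arrays, so their values stand side by side here and no correlation between them was taken. RNA from whole cultures does not tell fewer cells using a gene apart from less of its RNA in each cell.

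**Figure D1:**
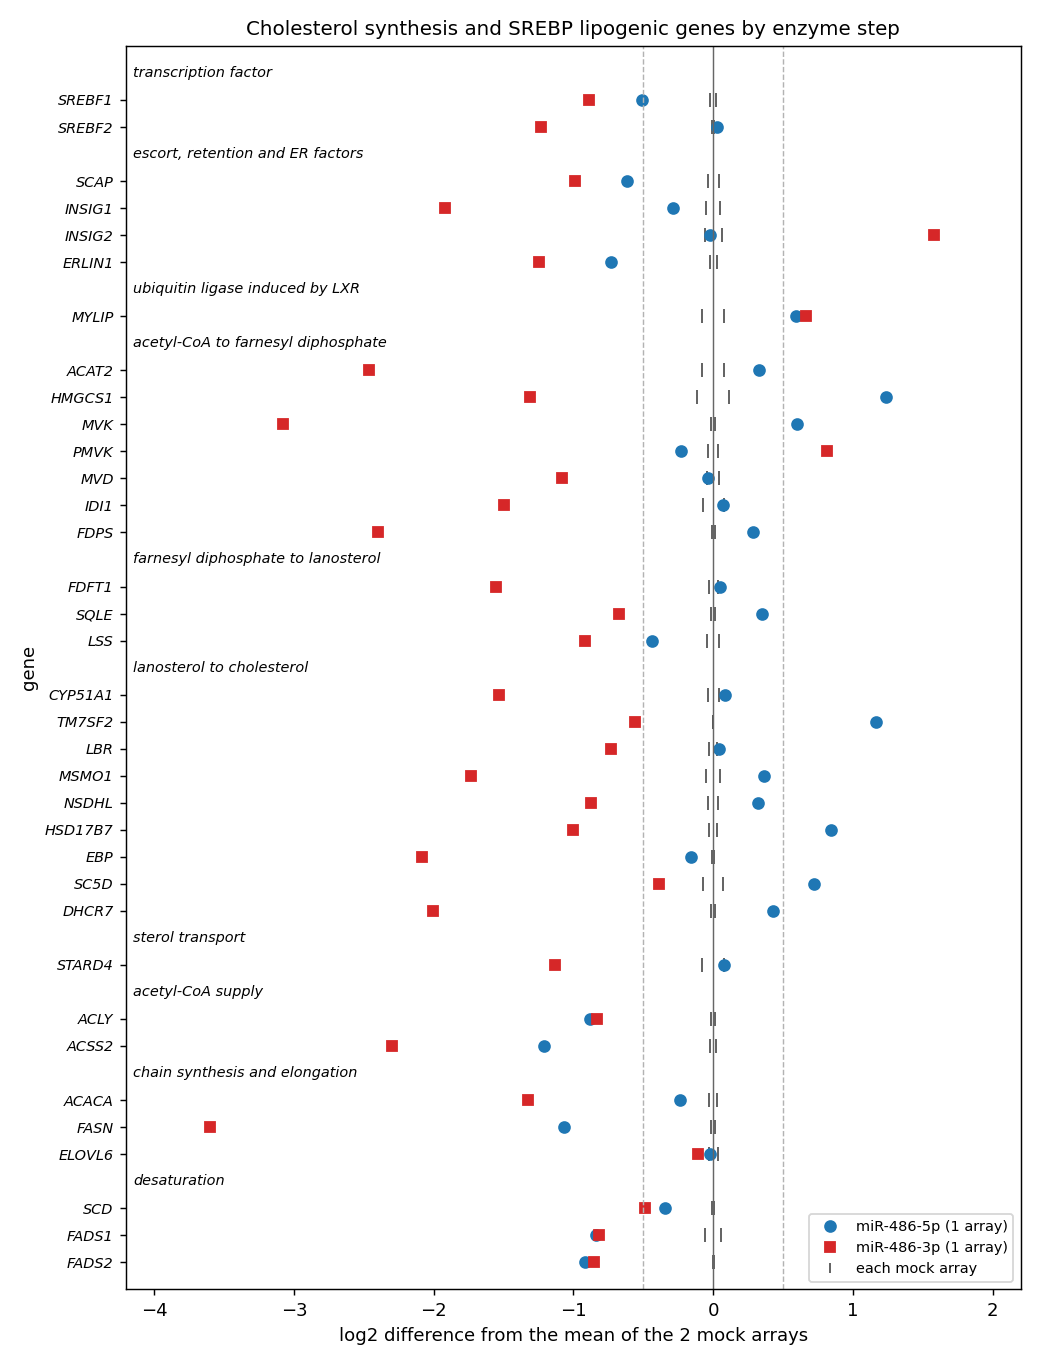
Log2 difference (x axis) of each of the 35 genes (y axis, grouped by role and enzyme step) after miR-486-5p (blue circles) and miR-486-3p (red squares) from the mean of the mock arrays, whose own deviations are the grey ticks, with dashed lines at the limits of -0.5 and 0.5. The red squares lie left of the lower limit for 29 genes and right of the upper one for INSIG2, PMVK and MYLIP, while blue circles lie on both sides.

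Promoters were read for letters known from SREBP targets. Most of the enzymes described here are textbook SREBP targets, so the shares of these letters among the members do not bear on the values after either strand. RefSeq windows of 300 bases, 250 before and 50 after a gene's start (GRCh38.p14), were found for 30 of the 35 genes, and not for FDFT1, ERLIN1, ACAT2, SQLE and FASN. The sterol regulatory element spelled TCACNCCAC, read on both strands, was in the window of SREBF2, 1 of 30 members, and in 1.42% of the 12840 genes measured that had a window. Its core CACNCCA, which is contained in the full element, was in 14 members, or 46.7%, and in 21.4% of genes measured. The CCAAT box was in 22 members (73.3%, against 42.1% of genes measured) and the GC box GGGCGG in 28 (93.3%, against 71.0%). The E-box CACGTG was in INSIG1, LSS, SC5D and SCAP (13.3%, against 11.7%). Over all 27305 genes with a window, the shares were 1.39% for the element, 20.6% for its core, 39.7% for the CCAAT box, 48.3% for the GC box and 8.78% for the E-box. These shares are descriptions of letters in a window, and neither a match nor its absence says whether a factor binds there.

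Of the 14 genes with the core, 7 are in the sterol branch (EBP, IDI1, MSMO1, MVD, MVK, SC5D and TM7SF2), 4 in the fatty acid branch (ACACA, ACLY, ACSS2 and SCD), and INSIG1, MYLIP and SREBF2 are regulators. The stretches printed here show the letters around the core in 9 of them. These were chosen after their values were seen, because each was lower by more than 1 on the log2 scale after miR-486-3p. FDPS, DHCR7, CYP51A1, HMGCS1, STARD4 and HSD17B7 were also lower by more than 1 there, and their windows hold no core. ACLY, SCD, SC5D and TM7SF2 have the core and were not lower by that much, and MYLIP, which has it too, was higher. Whether the core goes with a lower value was not tested. Each stretch has 120 bases upstream of the start, 5′ to 3′ on the strand of its gene, with every match to the motifs in capitals and touching or overlapping matches run together. Where a gene has several listed starts, its stretch and distance belong to a start whose window holds the core. Read from the other strand, the core is TGGNGTG, the CCAAT box ATTGG and the GC box CCGCCC. The stretch of SREBF2 lies at chr22:41832917-41833036 on the plus strand and is the only one with the full element, and that of INSIG1 at chr7:155297628-155297747 on the plus strand. For the sterol enzymes, MVK is at chr12:109573544-109573663 on the plus strand, MVD at chr16:88663092-88663211 on the minus strand, IDI1 at chr10:1048937-1049056 on the minus strand, MSMO1 at chr4:165327458-165327577 on the plus strand and EBP at chrX:48521610-48521729 on the plus strand. For the fatty acid genes, ACSS2 is at chr20:34874754-34874873 on the plus strand and ACACA at chr17:37299898-37300017 on the minus strand. The first base of the core lay 132 bases before the start in SREBF2, 207 in INSIG1, 194 in MVK, 48 in MVD, 114 in IDI1, 155 in MSMO1, 142 in EBP, 179 in ACSS2 and 223 in ACACA.
SREBF2: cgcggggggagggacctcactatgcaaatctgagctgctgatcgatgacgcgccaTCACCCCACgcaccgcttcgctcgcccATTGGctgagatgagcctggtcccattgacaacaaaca
INSIG1: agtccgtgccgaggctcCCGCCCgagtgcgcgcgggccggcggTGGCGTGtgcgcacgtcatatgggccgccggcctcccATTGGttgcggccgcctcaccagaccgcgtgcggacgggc
MVK: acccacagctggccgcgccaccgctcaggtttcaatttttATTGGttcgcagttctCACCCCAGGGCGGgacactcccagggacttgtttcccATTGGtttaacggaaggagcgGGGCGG
MVD: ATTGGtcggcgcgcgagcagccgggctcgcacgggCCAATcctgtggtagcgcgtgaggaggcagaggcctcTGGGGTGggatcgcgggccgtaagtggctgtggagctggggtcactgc
IDI1: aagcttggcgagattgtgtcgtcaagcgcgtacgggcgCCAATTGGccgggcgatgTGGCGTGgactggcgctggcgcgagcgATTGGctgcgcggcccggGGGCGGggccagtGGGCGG
MSMO1: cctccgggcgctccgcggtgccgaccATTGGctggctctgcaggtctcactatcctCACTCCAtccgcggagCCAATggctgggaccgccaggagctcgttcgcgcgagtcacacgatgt
EBP: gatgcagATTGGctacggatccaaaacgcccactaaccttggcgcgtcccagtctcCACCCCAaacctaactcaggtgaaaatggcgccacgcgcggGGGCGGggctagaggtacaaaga
ACSS2: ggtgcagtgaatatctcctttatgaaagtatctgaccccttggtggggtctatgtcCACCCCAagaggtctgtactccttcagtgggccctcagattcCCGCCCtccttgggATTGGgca
ACACA: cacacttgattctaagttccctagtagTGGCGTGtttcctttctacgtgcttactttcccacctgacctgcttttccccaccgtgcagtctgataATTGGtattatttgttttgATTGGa

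The regulators did not move as a unit. SREBF1 was read by 2 probes that disagreed. The first (A_23_P129786) had scaled log2 signals of 5.68 after miR-486-5p, 4.84 after miR-486-3p and 6.79 on each mock array, which are 2.15-fold and 3.87-fold lower signals. The second (A_33_P3222139) stayed between -0.13 and 0.09 on the 4 arrays, with log2 differences of 0.09 and 0.18. Both probes are listed under a single accession, so the gene-level values of -0.51 and -0.89 average a probe that was lower after both strands with one that stayed near the mock arrays. The first of these values no longer passed the limit without mock 1 or with quantile normalization.

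SREBF2, the factor best known for sterol synthesis, had scaled log2 signals of 2.69 after miR-486-5p, 1.43 after miR-486-3p, 2.66 on mock 1 and 2.68 on mock 2. Its log2 difference was 0.03 with miR-486-5p, and -1.23 with miR-486-3p, a 2.35-fold lower signal. The escort SCAP was lower after both strands, at 1.53 and 1.15 against 2.10 and 2.18 on the mock arrays, with a log2 difference of -0.99 after miR-486-3p. ERLIN1, which encodes an endoplasmic reticulum membrane protein of the sterol-regulated degradation machinery, was also called lower after both, at -0.73 and -1.25. With quantile normalization it stood at -0.76 and -1.50, and with the authors' log2 values at -0.77 and -1.51. With normexp background correction of the median spot signal it stood at -0.18 and -0.19 and passed the limit after neither. That correction added an offset of 50 to each intensity, which makes differences of dim probes smaller by construction. The processed signals of ERLIN1 were 12.9 to 38.3.

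The retention factors INSIG1 and INSIG2 went opposite ways after miR-486-3p. INSIG1, itself a target of the SREBP factors, had 3.88 after miR-486-5p, 2.24 after miR-486-3p, 4.21 on mock 1 and 4.11 on mock 2, and its log2 differences were -0.28 and -1.92. INSIG2 was 2.99-fold higher after miR-486-3p and within the spread of the mock arrays after miR-486-5p. Both of its probes showed this, with log2 differences of 1.54 and 1.62 after miR-486-3p and 0.00 and -0.05 after miR-486-5p. INSIG2 is known for transcription that does not depend on the SREBP factors. MYLIP, a ubiquitin ligase induced by the sterol-sensing LXR receptors, was higher after both strands, with scaled log2 signals of 2.08 and 2.15 against 1.56 and 1.41 on the mock arrays. Its call after miR-486-5p ended with normexp (0.47), and its call after miR-486-3p ended under median scaling (0.29).

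**Figure D2:**
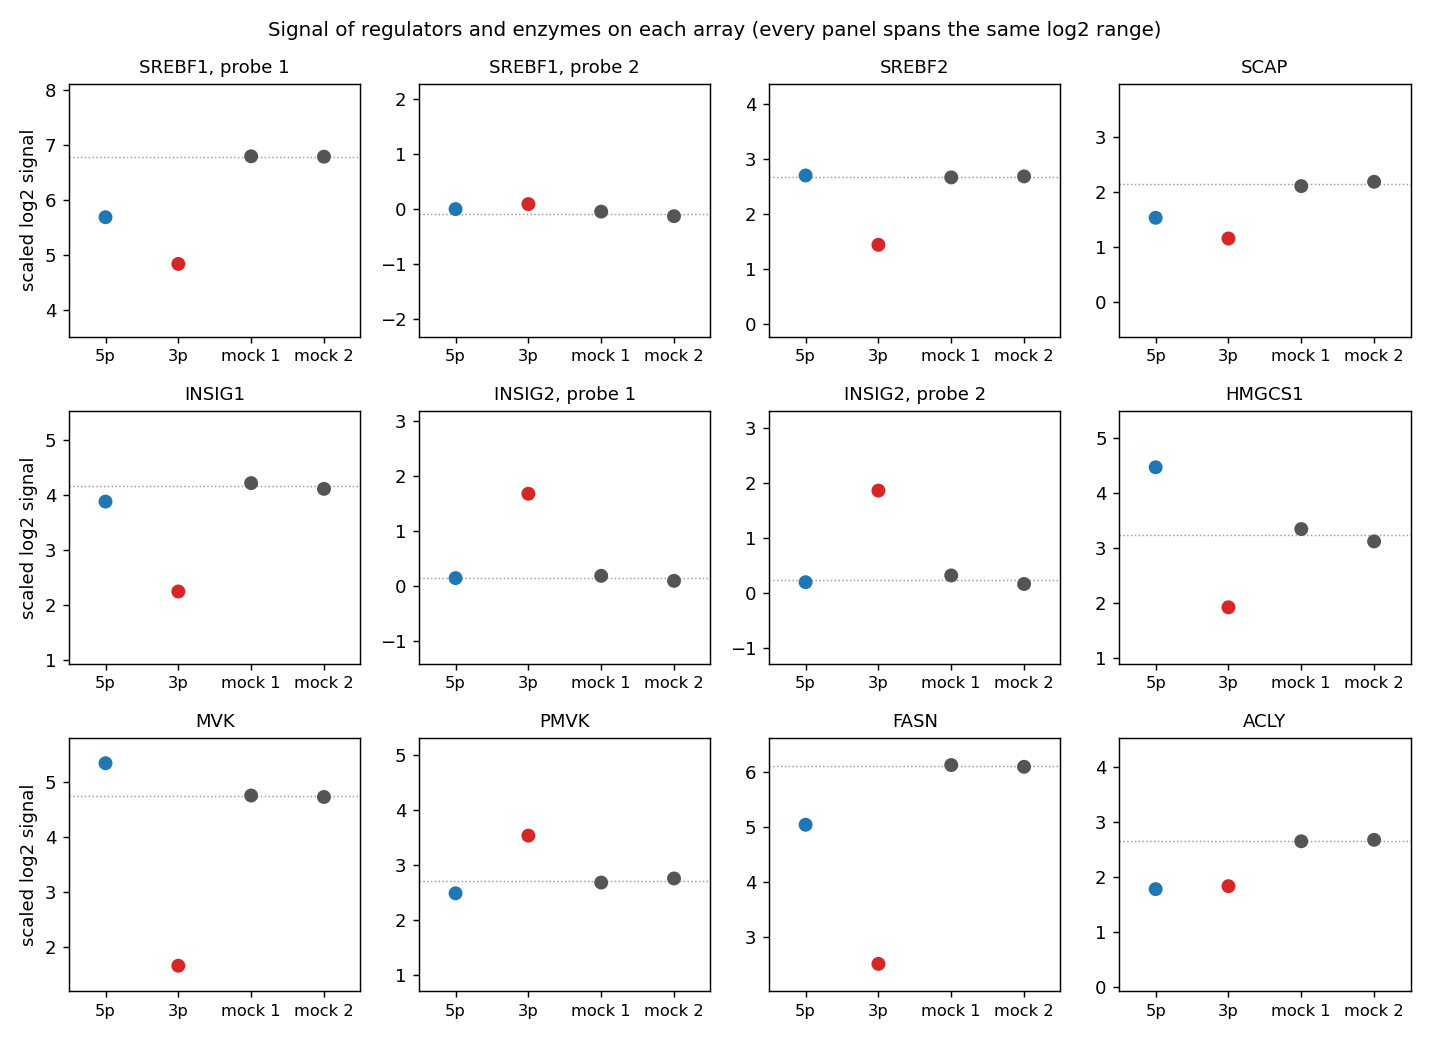
Scaled log2 signal (y axis, each panel spanning the same log2 range) of 12 probes of 10 regulators and enzymes on each array (x axis), miR-486-5p in blue, miR-486-3p in red and the mock arrays in grey, with a dotted line at the mean of the mock arrays. The grey points nearly coincide in every panel, SREBF1 shows its disagreeing probes, and the panels of HMGCS1 and MVK have the blue point above the line and the red point below it.

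In the early pathway, from acetyl-CoA to farnesyl diphosphate, 6 of 7 genes were lower after miR-486-3p, and 2 were higher after miR-486-5p. MVK, mevalonate kinase, had scaled log2 signals of 5.35 after miR-486-5p, 1.67 after miR-486-3p, 4.76 on mock 1 and 4.73 on mock 2. The miR-486-3p array stood 8.46-fold below the mock mean (log2 difference -3.08), and only 74 of the 15063 genes measured on both sides of that comparison had a lower value. The miR-486-5p array stood above both mock arrays, by 0.60 on the log2 scale. HMGCS1, which condenses acetoacetyl-CoA with acetyl-CoA, had 4.47 after miR-486-5p and 1.93 with miR-486-3p, against 3.35 and 3.12 on the mock arrays. Its log2 differences of 1.24 and -1.31 lay on opposite sides of the mock arrays, which differed from each other by -0.22, the widest gap among the members.

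ACAT2, the cytosolic thiolase that supplies acetoacetyl-CoA, was 5.50-fold lower after miR-486-3p, with 3.97 against 6.51 and 6.35 on the mock arrays, and 6.76 after miR-486-5p. FDPS, farnesyl diphosphate synthase, was 5.28-fold lower, at 5.28 against 7.67 and 7.69, and had 7.97 after miR-486-5p. IDI1, the isopentenyl diphosphate isomerase, and MVD, the mevalonate diphosphate decarboxylase, had log2 differences of -1.50 and -1.08 after miR-486-3p and stood within 0.07 of the mock mean after miR-486-5p. PMVK went the other way. This phosphomevalonate kinase, which acts on the product of MVK, had 3.54 after miR-486-3p against 2.69 and 2.76 on the mock arrays and 2.49 after miR-486-5p, and was the only sterol gene called higher after miR-486-3p, at 0.82. Under median scaling PMVK stood at 0.44 and did not pass the limit.

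From farnesyl diphosphate to lanosterol, all 3 genes were lower after miR-486-3p and none passed the limit after miR-486-5p. FDFT1, squalene synthase, had 3.78 after miR-486-3p against 5.37 and 5.31 on the mock arrays, and 5.39 after miR-486-5p. SQLE, the squalene epoxidase, had log2 differences of 0.35 after miR-486-5p and -0.67 with miR-486-3p. The call of SQLE after miR-486-3p ended with quantile normalization (-0.42) and with the authors' log2 values (-0.38). The probes of LSS, lanosterol synthase, agreed in direction after miR-486-3p, at -0.66 and -1.18. After miR-486-5p they did not agree in size, at 0.01 and -0.89, and the gene-level value of -0.44 passed the limit when the brighter probe was used alone.

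Among the 9 genes from lanosterol to cholesterol, 8 were lower after miR-486-3p and 3 higher after miR-486-5p. EBP, the sterol isomerase, and DHCR7, which reduces a double bond of the B ring in the last part of the pathway, were lowest after miR-486-3p. EBP had 3.52 against 5.62 and 5.60 on the mock arrays (4.24-fold lower) and 5.45 after miR-486-5p. DHCR7 had 3.53 against 5.55 and 5.52 (4.01-fold lower) and 5.97 after miR-486-5p. MSMO1 and CYP51A1, which remove methyl groups from lanosterol and its products, had log2 differences of -1.73 and -1.53 after miR-486-3p, and 0.36 and 0.09 with miR-486-5p.

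HSD17B7, a ketoreductase of the demethylation steps, was read by 3 probes that agreed, with log2 differences of 0.80, 0.73 and 0.99 after miR-486-5p and -1.12, -1.07 and -0.82 after miR-486-3p. TM7SF2 and LBR both encode sterol C14 reductases, LBR being also the lamin B receptor. TM7SF2 had scaled log2 signals of 1.71 after miR-486-5p and -0.02 with miR-486-3p against 0.54 on each mock array, while LBR had 4.33 and 3.56 against 4.32 and 4.26. So the reductases differed after miR-486-5p, at 1.16 and 0.05, and were both lower after miR-486-3p, at -0.56 and -0.73. After miR-486-3p, TM7SF2 did not pass the limit with normexp (-0.35), nor LBR with quantile normalization (-0.48). NSDHL, a decarboxylating dehydrogenase, had 0.32 and -0.88. SC5D, the C5 desaturase, was higher after miR-486-5p (0.72) and did not pass the limit after miR-486-3p (-0.39). STARD4, which carries sterols between membranes, had 0.08 and -1.13.

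In the fatty acid branch, all 8 genes had values below the mock mean after both strands (ELOVL6 after miR-486-5p not when mock 1 was left out), 5 of them past the limit after miR-486-5p and 6 with miR-486-3p. FASN, fatty acid synthase, had scaled log2 signals of 5.05 after miR-486-5p, 2.52 after miR-486-3p, 6.13 on mock 1 and 6.10 on mock 2. It was 2.10-fold lower after miR-486-5p (log2 difference -1.07), and its log2 difference of -3.60 after miR-486-3p was the lowest value of the 35 genes, with 19 of 15063 genes lower. ACSS2, which makes acetyl-CoA from acetate, had 1.33 and 0.25 against 2.56 and 2.52 on the mock arrays, with log2 differences of -1.21 and -2.30. ACACA, the carboxylase that makes malonyl-CoA for FASN, was lower after miR-486-3p with both of its probes, at -1.45 and -1.20. After miR-486-5p its probes gave 0.05 and -0.52, so that the call depended on the probe.

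ACLY, FADS1 and FADS2 had nearly the same values after both strands. ACLY, the citrate lyase that supplies cytosolic acetyl-CoA to both branches, had 1.78 after miR-486-5p, 1.84 after miR-486-3p, 2.65 on mock 1 and 2.68 on mock 2. FADS1 and FADS2 encode the delta-5 and delta-6 desaturases of polyunsaturated fatty acids and are neighbours on 1 chromosome. Their log2 differences were -0.84 and -0.92 after miR-486-5p, and -0.81 and -0.86 after miR-486-3p. Under median scaling ACLY, FADS1 and FADS2 had -0.96, -0.91 and -0.99 after miR-486-5p, and -1.20, -1.19 and -1.23 after miR-486-3p. With the authors' log2 values they had -0.875, -0.78 and -0.90 after miR-486-5p, and -0.735, -0.55 and -0.78 after miR-486-3p. SCD, the stearoyl-CoA desaturase, did not pass the limit, at -0.34 after miR-486-5p and, just inside it, -0.49 after miR-486-3p. ELOVL6, which elongates palmitate, stood within 0.11 of the mock mean after both strands, although it is a textbook SREBP target like the others. Under median scaling ELOVL6 stood at -0.48 after miR-486-3p, just inside the limit.

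Set beside each other, the branches had medians in opposite order after each strand. After miR-486-5p, the median log2 difference was 0.32 over the 19 sterol genes (from -0.44 to 1.24) and -0.86 over the 8 fatty acid genes (from -1.21 to -0.02). None of the sterol genes passed the lower limit (LSS did under median scaling, at -0.52, and with its brighter probe), 5 passed the upper one, and 5 of the 8 fatty acid genes lay below the lowest sterol gene, LSS, or 3 when the brighter probe of LSS was used alone (-0.89). After miR-486-3p, the median was -1.31 over the sterol genes (from -3.08 to 0.82) and -0.84 over the fatty acid genes (from -3.60 to -0.11), and the ranges overlapped. Between the mock arrays the medians were -0.03 and -0.04. So the fatty acid median was nearly alike after both strands (-0.94 and -1.22 when arrays were centred on their medians) while the sterol median lay on opposite sides of 0, though the spread within each branch was wide. This difference between the branches was not tested. The like fatty acid medians do not describe every gene of that branch. FASN (-1.07 and -3.60), ACSS2 (-1.21 and -2.30) and ACACA (-0.24 and -1.32) were lower after miR-486-3p than after miR-486-5p, which is given first. The other fatty acid genes differed between the strands by 0.14 or less. The sterol median minus the fatty acid median was 1.18 after miR-486-5p and 1.06 with normexp on the median signal. After miR-486-3p it was smaller and less steady, at -0.47, with -0.35 without mock 1, -0.56 without mock 2 and -0.20 with normexp, where the medians were -1.09 and -0.88.

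**Figure D3:**
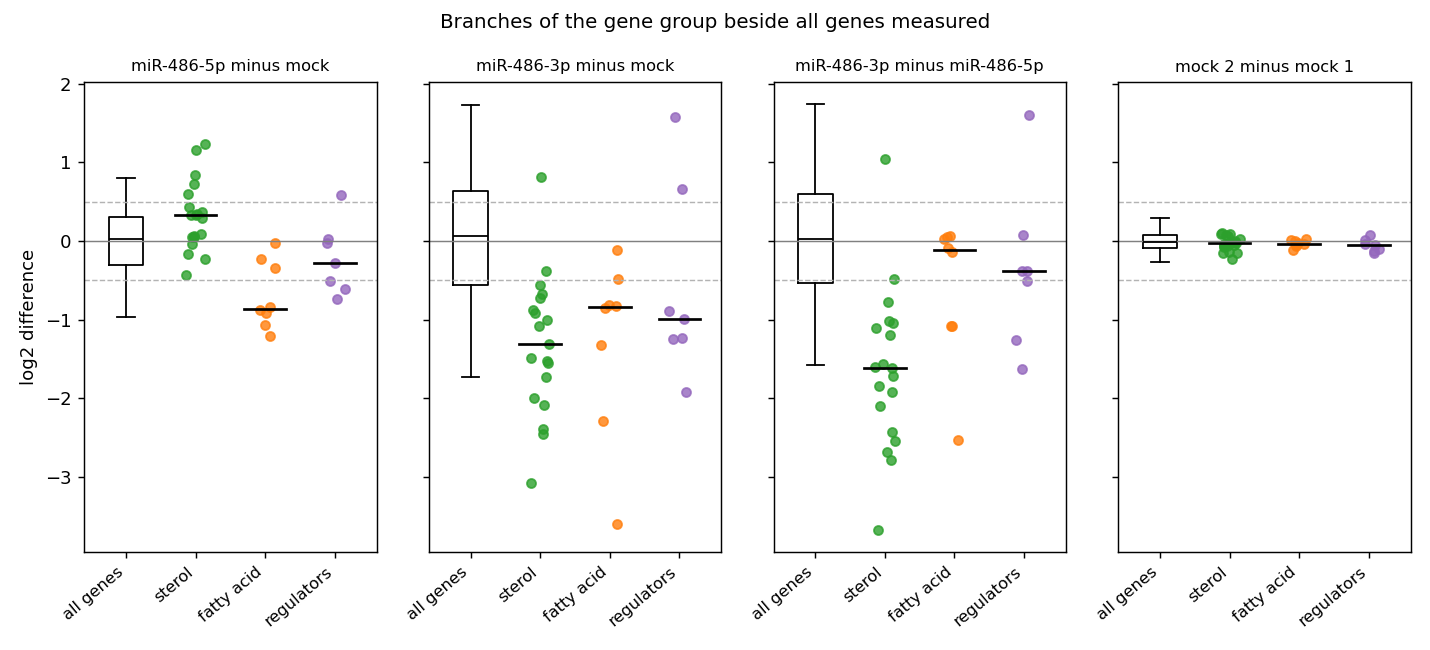
Log2 difference (y axis) of the sterol, fatty acid and regulator genes (points, with a black line at the median) beside all genes measured (box from the first to the third quartile, whiskers at the 5th and 95th percentiles) in 4 comparisons of arrays. Sterol genes have a median of 0.32 after miR-486-5p and -1.31 with miR-486-3p, fatty acid genes -0.86 and -0.84, and in the comparison of the mock arrays all points lie close to 0.

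The transfected arrays were also compared with each other, 1 array against 1 array, without the mock arrays. Of the 35 genes, 24 were lower after miR-486-3p than after miR-486-5p and 2 were higher, beside 26.4% of 16558 genes lower and 28.6% higher. All of the 9 genes from lanosterol to cholesterol were lower, between -2.43 (DHCR7) and -0.78 (LBR). MVK was 12.8-fold lower (-3.68), with 7 of the 14731 genes measured on both arrays below it, and ACAT2 was 6.91-fold lower. INSIG2 and PMVK were the genes called higher, at 1.60 and 1.05. The sterol median was -1.62 and the fatty acid median -0.11. Under median scaling 27 members were lower and 2 higher, beside 38.8% and 18.9% of genes, and the medians were -1.92 and -0.41. In the fatty acid branch, FASN, ACACA and ACSS2 were lower after miR-486-3p, at -2.53, -1.09 and -1.08, while the other 5 genes stood between -0.14 and 0.06.

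By the side of each strand, 4 genes (HMGCS1, MVK, TM7SF2 and HSD17B7) were called higher after miR-486-5p and lower after miR-486-3p, all of them enzymes of the sterol branch. The share of all genes on opposite sides is not given here, so this count does not say whether the members stand apart. Another 8 (SREBF1, SCAP, ERLIN1, ACLY, ACSS2, FASN, FADS1 and FADS2) were called lower after both, and MYLIP was higher after both. For these counts too the share of all genes is not given. Both comparisons use the same mock arrays, so calls on the same side are not independent. For 17 genes only the miR-486-3p array passed the lower limit, and for INSIG2 and PMVK only that array passed the upper one. How many of all genes passed a limit with 1 strand only is not given either, so these counts do not set the members apart. Lower calls were more common over all genes with miR-486-3p (27.2%) than with miR-486-5p (15.9%). SC5D passed the limit only after miR-486-5p, and ELOVL6 and SCD after neither strand, but median scaling put SC5D (-0.76) and SCD (-0.86) past the lower limit after miR-486-3p, as quantile normalization and the authors' log2 values did SC5D (-0.61 and -0.62). With normexp on the median signal, TM7SF2 after miR-486-3p (-0.35) no longer passed the limit, which leaves HMGCS1, MVK and HSD17B7 on opposite sides. ERLIN1 then passed it after neither strand, MYLIP (0.47) and SC5D (0.27) no longer passed it after miR-486-5p, and SCD was lower after miR-486-3p (-0.54). MSMO1 and HSD17B7 kept their calls after miR-486-3p with smaller values, -1.005 and -0.651. The shares over all genes were then also smaller, 8.20% lower and 4.56% higher with miR-486-5p (7 and 4 members), and 18.7% and 15.2% with miR-486-3p (28 and 3 members). No test of a difference between the strands was made, and each has 1 array.

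Other lists of lipid genes were counted by the same limit, without a test, and their counts stand beside the shares over all genes measured (with miR-486-5p, 15.9% below the lower limit and 13.8% above the upper one, and with miR-486-3p, 27.2% and 30.4%). Of 12 genes that use farnesyl diphosphate for isoprenoids, ubiquinone or dolichol, 5 were lower and 4 higher with miR-486-3p (median 0.26), and 3 were lower and 2 higher with miR-486-5p (0.13). PDSS1, which builds the side chain of ubiquinone, had -0.75 after miR-486-5p and -1.51 with miR-486-3p, and RABGGTA, a subunit of a prenyltransferase for Rab proteins, had 0.88 and -1.15. Of 12 genes of SREBP cleavage and sterol-regulated degradation, 2 were lower and 3 higher after miR-486-3p (median 0.16), and 1 was lower and 1 higher after miR-486-5p (-0.03). FBXW7, the substrate receptor of a ubiquitin ligase that marks nuclear SREBP for degradation, had 1.58 after miR-486-3p and -0.04 with miR-486-5p. TMUB1 had -1.97 and -0.04, and RNF139 0.64 and 0.55, each with the value for miR-486-3p first.

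Among 6 genes of the LXR receptors and their targets, 2 were lower and 3 higher after miR-486-3p (median 0.49), and 3 were lower and 2 higher after miR-486-5p (-0.47). LPCAT3, which remodels phospholipids, had -2.56 after miR-486-3p and -0.43 with miR-486-5p. The receptor genes differed, with NR1H3 at -2.03 after miR-486-3p and -0.53 with miR-486-5p, and NR1H2 at -0.03 after miR-486-3p and 2.14-fold higher after miR-486-5p. SMPDL3A had 1.04 after miR-486-3p and 0.80 with miR-486-5p. Of 11 genes of sterol trafficking, esterification and hydroxylation, 10 were measured, of which 3 were lower and 3 higher after miR-486-3p (median 0.17) and 2 lower and 2 higher after miR-486-5p (-0.06). NPC1, which exports cholesterol from lysosomes, had 0.92 after miR-486-5p and 0.15 with miR-486-3p, and STARD3 had 0.53 and 0.19. In each of these lists 1 value after miR-486-5p is a bound, since its probe was dim on that array. STARD5 had -0.41 and -1.82, and SOAT1, which esterifies cholesterol, -0.23 and -0.94.

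The other lists of fatty acid genes are of synthesis and of oxidation. Of 19 genes of fatty acid activation, other elongation and glycerolipid synthesis, 8 were lower and 5 higher after miR-486-3p (median -0.27), and after miR-486-5p 2 were lower and none higher (-0.11). TECR, the reductase that ends each round of elongation, had -2.36 after miR-486-3p and 0.17 with miR-486-5p, and AGPAT1, an acyltransferase of glycerolipid synthesis, -2.34 and -0.35. MID1IP1, which promotes the polymerisation of acetyl-CoA carboxylase, had -1.09 after miR-486-5p and -0.92 with miR-486-3p, and ACACB, the carboxylase paralogue tied to oxidation, had -0.73 after miR-486-5p. ACACB is among the genes counted higher after miR-486-3p only through a second probe that was dim on 2 arrays, and the probe used after miR-486-5p stood just inside the limit there. Of 11 genes of fatty acid oxidation, none was lower and 6 were higher after miR-486-3p (median 1.08), and after miR-486-5p 1 was lower and 5 were higher (0.32). SLC25A20, the mitochondrial carnitine carrier, had 0.95 after miR-486-5p and 2.78 with miR-486-3p, ACADVL 1.07 and 1.21, and the receptor gene PPARA 0.32 and 1.79.

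**Figure D4:**
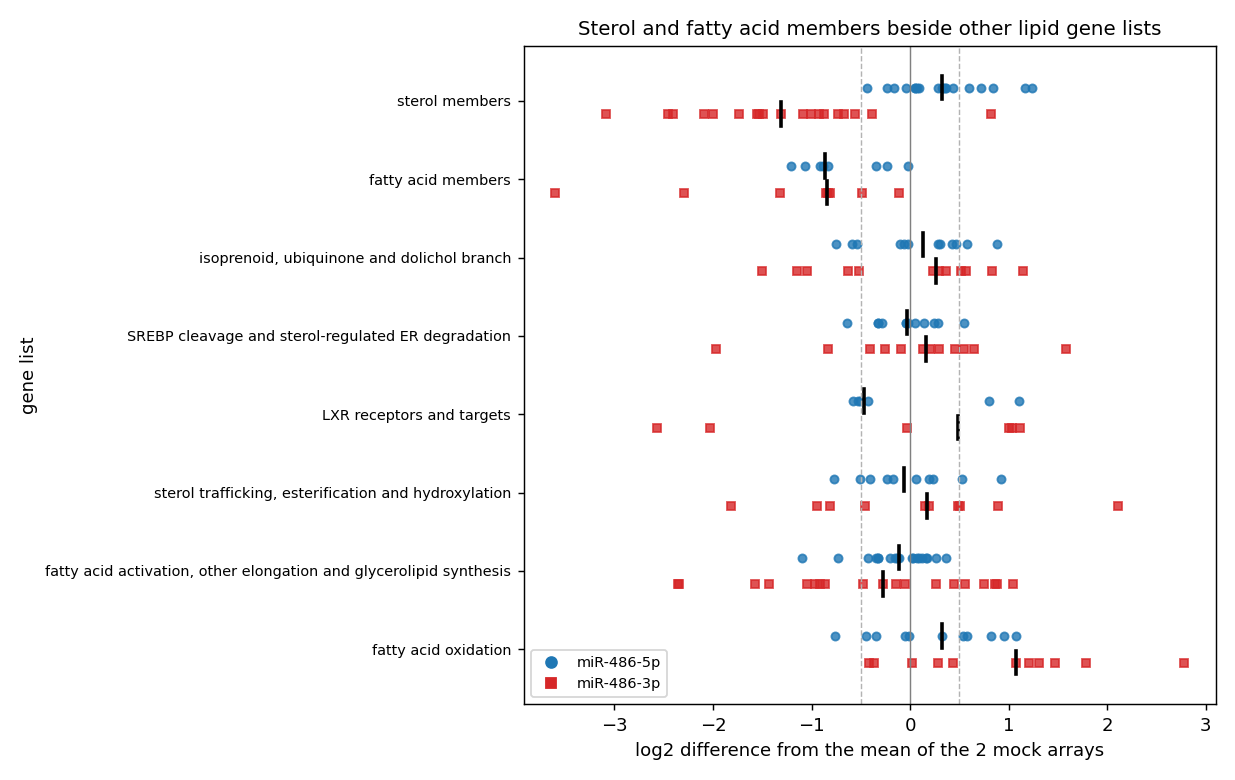
Log2 difference against the mock mean (x axis) of the sterol and fatty acid members and of 6 other lists of lipid genes (y axis) after miR-486-5p (blue circles) and miR-486-3p (red squares), with a black bar at each median and dashed lines at the limits of -0.5 and 0.5. After miR-486-3p the bar of the sterol members is at -1.31 and that of the fatty acid oxidation genes at 1.08, and the other lists have medians between -0.27 and 0.49 apart from the fatty acid members at -0.84.

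The zero point of these values depends on how the arrays are scaled. When each array was centred on its median in place of its 75th percentile, the median of all genes after miR-486-3p moved by -0.37, to -0.32, and the share of higher genes among all called genes went from 52.9% to 29.9%. After miR-486-5p it moved by -0.08, and that share went from 46.5% to 36.3%. Of the 35 genes, 31 were then lower and 1 higher after miR-486-3p, with MYLIP and PMVK no longer past the upper limit, while the share of all genes that were lower rose to 41.7% and that of higher genes fell to 17.8%. After miR-486-5p, LSS was then also lower. Quantile normalization took SQLE and LBR inside the limit after miR-486-3p and SC5D past it, and the authors' log2 values did the same for SQLE (-0.38) and SC5D. Every sign after miR-486-3p was kept under the scalings tried, and after miR-486-5p the signs of SREBF2, IDI1, FDFT1 and LBR turned under median scaling and that of MVD under quantile normalization, all of them within 0.07 of 0.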

How the data were processed

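For each array the authors deposited the output of Agilent Feature Extraction 12.1.1.1, in which gProcessedSignal is a background-corrected intensity on a linear scale, not normalized between arrays. A second table the authors deposited holds log2 values per probe, made by a method not given in the sources used here. Its column medians were 2.76 on every array, and over probes well above background its Pearson correlation with the scanner log2 signal was lowest on the miR-486-3p array, at 0.99986, so these are log2 values of the same direction as the scanner signal. Their slope against it differed by array, from 0.978 on mock 1 to 1.05 on the miR-486-3p array. All 4 arrays were on 1 slide and in 1 scan, and neither could be fitted as a batch.

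From the log2 of gProcessedSignal, the 75th percentile over the 60901 non-control spots was subtracted on each array. Outlier spots were dropped and a probe's spots averaged. Of 58201 probes, 31100 were matched to 1 gene, 22435 genes in all, through RefSeq accessions without versions (GRCh38.p14 tables). The array's own annotation uses an older build, so that coordinates are printed only for promoter windows, taken from RefSeq. A probe counted for a strand if the transfected array, or each mock array, had it well above background. A group dim on all of its arrays was raised to the array's lowest signal well above background where it lay under that, which makes the difference a bound and applies to none of the 35 genes. Probes in use were averaged per gene.

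No test was run, since each strand has 1 array and the members and lists were chosen with earlier results of these data known. All 35 members are named, with, for each other list, the 2 genes of largest absolute log2 difference after each strand among those whose probes in use for that strand were well above background on all 4 arrays, of which 1 gene is not reported here. Markers are given by list. Other scalings, background correction, filters and probe choices were tried, and each mock array was left out in turn. The gene-level steps were tested on simulated data with known changes. Python with numpy and pandas was used, with limma in R for normexp (with an intensity offset of 50) and quantile normalization.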

Additional observations from a re-analysis of the deposited data

How the results depend on the processing

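The signs of the branch medians after each strand held under every alternative run, and no member called lower or higher changed sign. With a limit of 1 in place of 0.5, 2 members were lower and 2 higher after miR-486-5p (4.61% and 2.53% of all genes), and 19 lower and 1 higher after miR-486-3p (14.0% and 14.8%), which follows from the stricter limit. With median scaling, 1 member was higher after miR-486-3p, the sterol median was -1.68 and the fatty acid median -1.22, and in miR-486-3p minus miR-486-5p they were -1.92 and -0.41, which follows from the moved zero point. With quantile normalization, the sterol median after miR-486-3p was -1.16, the fatty acid median -0.70, and the sterol median of miR-486-3p minus miR-486-5p -1.48. With the authors' log2 values the last was -1.46. Normexp on the median signal, chosen after seeing the data because the files hold no mean signal, gave a sterol median of -1.09 and a fatty acid median of -0.88 after miR-486-3p, and a sterol median of -1.34 between the transfected arrays. Its offset of 50, added to each intensity, makes differences of dim probes smaller by construction. What else moved these values was not tested. The planned version on the mean signal was not run. Leaving out either mock array moved no count by over 1.5 times. Without mock replicate 1, SREBF1 after miR-486-5p no longer passed the lower limit. No paired analysis was possible because no result comes from a test and a strand has 1 array. Of 35 members after miR-486-3p, 35 moved by more than the SD of a single array (0.14) under median scaling, 22 under quantile normalization, 16 with the authors' values, 10 under normexp and 2 with the brightest probe. After miR-486-5p, 6 moved under normexp, 3 with the brightest probe, and none under those scalings. Under normexp, the calls of ERLIN1, SC5D and MYLIP ended after miR-486-5p and those of ERLIN1 and TM7SF2 after miR-486-3p, where SCD passed the lower limit. ERLIN1 and SC5D had the lowest processed signals of the members.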

Other observations

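Genes outside the marker list fixed for the label check were looked at after its values had been seen. VIM, the mesenchymal filament vimentin, and UCHL1, a neuronal deubiquitinase, were well above background on all 4 arrays, with scaled log2 signals on mock 1 of 9.02 for VIM and 8.56 for UCHL1. Both probes of ZEB1, a repressor of CDH1, were also well above background on all 4 arrays. FGB, fibrinogen beta, and CEACAM6, a surface protein of many epithelial tumours, were not well above background on any array, with -6.76 and -6.95 on mock 1. These genes were chosen after their values were seen, levels of different probes are not comparable, and no other cell type was tested for.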
